A study of Mus musculus with 104 samples.

Results

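Rnf115, Cog2, Camk2n1, Spata6 and Tfap2a are 5 genes whose mRNA carries a full seed match to the guide strand of D1, a GalNAc-siRNA against Hao1. They were picked on the readout itself. Each has the complete 8-base seed match in its 3′-UTR, was called lower with D1 at 10 nM than in mock at an adjusted p of 0.05, and had no D1 library there that reached the lowest of the 8 mock libraries. Ordered by log2 fold-change they were the first 5 of 13 genes that met these conditions. They are 5 of 83 genes with a full match, of which 43 were expressed highly enough to be tested, among 12153 genes tested and 55416 listed.

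Primary mouse hepatocytes (PMH), liver cells brought into culture from the animal, were transfected in the presence of a lipid carrier, and RNA was sequenced after 24 h. D1 is the parent siRNA. D2 has the same sequence with GNA-C at guide position 5 (g5), and D3 has GNA-isoC there. D4 is a parent siRNA against Ttr, and D5 and D6 are its versions with GNA-G and GNA-isoG at g6. Each siRNA was given at 0.1, 1, 10 and 50 nM with 4 libraries per dose, and 8 mock libraries came from cells that went through a mock transfection. Mouse strain, sex and age are not given in the sources used here, and nothing there states that replicates were separate cultures or animals, so that p-values measure the spread between these libraries, which may be technical. GNA, glycol nucleic acid, is a nucleotide with a short acyclic backbone, and isocytidine and isoguanosine carry the amino and oxo groups of the base in swapped places.

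A guide strand loaded into Argonaute finds its intended target by pairing along most of its length. Pairing of the seed alone, the stretch just behind the 5′ end of the guide, to a 3′-UTR can lower an mRNA in the way a microRNA does, and this is a known source of siRNA off-target effects. A full match here means pairing to guide positions 2 to 8 with an A opposite position 1. The 5 genes have no function in common. Rnf115 encodes a RING-type E3 ubiquitin ligase related to Rnf126, Cog2 a subunit of the conserved oligomeric Golgi (COG) complex that tethers vesicles returning to and within the Golgi, and Camk2n1 an inhibitor protein of calcium/calmodulin-dependent kinase II (CaMKII). Spata6 is needed to build the neck of the sperm cell, and Tfap2a encodes AP-2 alpha, a transcription factor known for its part in neural crest and skin.

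The sites are shown because the shared bases are the reason for the choice of these genes, while the bases before them are where they differ from the intended target. Each line gives 23 bases, the length of the guide, 5′ to 3′ on the mRNA strand (GENCODE transcripts, GRCm39), and capitals mark the 8-base match.
Hao1: cagaatgtgaaagtcATCGACAA
Rnf115: tacaggtggaattgtATCGACAA
Cog2: atatggtaaaagtaaATCGACAA
Camk2n1: gctacctgcgatgaaATCGACAA
Spata6: tgtgctcctgtcaccATCGACAA
Tfap2a: tttttttttaatcaaATCGACAA

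The Hao1 site lies in coding sequence, in exon 8 of 8, at chr2:134340220-134340242 on the minus strand. The other 5 lie in the 3′-UTR and in the last exon of their gene. They are at chr3:96697501-96697523 on the plus strand for Rnf115 (ENSMUSG00000028098, exon 9 of 9), chr8:125278467-125278489 on the plus strand for Cog2 (ENSMUSG00000031979, exon 18 of 18) and chr4:138184221-138184243 on the plus strand for Camk2n1 (ENSMUSG00000046447, exon 2 of 2). The Spata6 site is at chr4:111685812-111685834 on the plus strand (ENSMUSG00000034401, exon 13 of 13) and the Tfap2a site at chr13:40870250-40870272 on the minus strand (ENSMUSG00000021359, exon 7 of 7). Outside the seed, few bases matched Hao1. Of the 15 bases opposite guide positions 9 to 23, 5 were the same as in Hao1 for Rnf115, 4 for Tfap2a, 3 for Camk2n1 and 2 each for Cog2 and Spata6. Over positions 13 to 16, where extra pairing can add to a seed match, 3 of 4 bases were the same for Rnf115 and Tfap2a, 2 for Cog2, 1 for Camk2n1 and 0 for Spata6.

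Each of the 5 genes has 1 full match and no further match to guide positions 2 to 8, or to positions 2 to 7 with the A, in its longest 3′-UTR or its coding sequence. The match was present in 5 of 5 annotated 3′-UTRs of Rnf115, 6 of 7 of Cog2, 3 of 3 of Camk2n1, 4 of 6 of Spata6 and 6 of 6 of Tfap2a. The 8-base motif ATCGACAA, searched on the mRNA strand only, is rare. It occurs in the longest 3′-UTR of 83 of 20963 protein-coding genes, 0.396%, against 3.04% for the full match of D4, CTCTATAA. Both motifs contain their own 7-base forms, and a gene was counted once, under its strongest form. None of 1679 mature mouse miRNAs in RefSeq had the same bases 2 to 8 as the D1 guide (0 of 1679). In the map of the 3′-UTRs all 5 matches lie close to the stop codon.

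**Figure D1:**
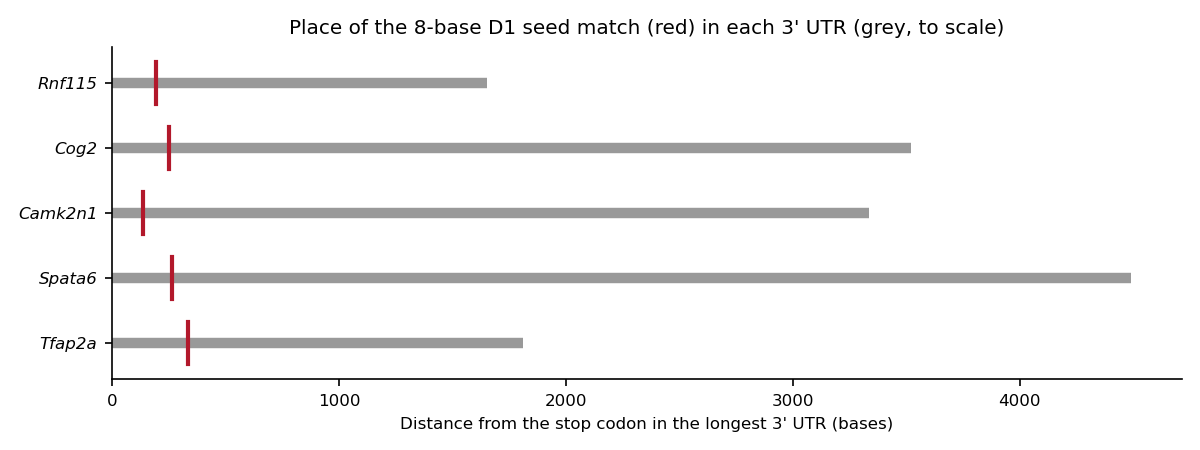
Each grey bar is the longest annotated 3′-UTR of a gene, drawn to scale in bases from the stop codon, and the red mark is the start of the 8-base D1 seed match. The matches start 137 to 334 bases from the stop codon in 3′-UTRs of 1653 to 4491 bases.

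The matches start 137 bases behind the stop codon in Camk2n1, 194 in Rnf115, 251 in Cog2, 264 in Spata6 and 334 in Tfap2a, which is 4.11% to 18.4% of the length of the 3′-UTR. In the other 38 tested genes with a full match the start lay between 0.769% and 97.6%, with a median of 35.4%. In the first 20% of the 3′-UTR it lay in 16 of 38, and in 5 of 5 of the genes described here. This cut is just above the 18.4% of Tfap2a, the highest of the 5, so it places all of them on 1 side. The 30 bases on either side of the match were 81.7% A or U in Tfap2a, 61.7% in Rnf115, 56.7% in Spata6, 55.0% in Camk2n1 and 48.3% in Cog2, against a median of 50% and a range of 30% to 71.7% in the other 38 genes.

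Libraries held 3409963 to 6160626 counts (median 4983570), so that a level of 1 CPM (counts scaled to library size) rests on few counts. Hao1, which encodes glycolate oxidase, was 33.7 ± 3.85 CPM in mock (SD, n = 8) and fell with D1 to 36.5%, 8.11%, 6.42% and 6.41% of mock at 0.1, 1, 10 and 50 nM. With D2 it fell to between 41.0% and 4.12% and with D3 to between 20.4% and 2.38%, so that the intended target was lowered by each of these 3 siRNAs at every dose. Ttr fell to at most 2.86% of mock with D4, D5 and D6. Hao1 was also lower with D4, D5 and D6 at 10 and 50 nM, at 57.6% (D4 at 50 nM, adjusted p = 3.86e-07, edgeR) to 73.6% of mock (D5 at 50 nM, adjusted p = 0.0251). All 8 hepatocyte markers were above 1 CPM in mean, the lowest over all libraries being Cps1 at 4.85 CPM and Cyp2e1 at 31.8 CPM. Of the other cell types the Kupffer cell markers summed to at most 1.60 CPM, with Cd5l and Vsig4 at 0 in every library. Summed endothelial markers lay between 0.225 and 3.37 CPM, other immune markers between 0.194 and 7.13 CPM, and stellate cell markers, nearly all of it Reln, between 6.89 and 28.2 CPM. The stellate sum was 8.20 to 14.3 CPM with D3 at 50 nM, below the 14.4 to 25.8 CPM of mock, and its part in the D3 results was not tested. The 5 cholangiocyte markers summed to 118 to 259 CPM, most of it Krt19 (mean 128 CPM over all libraries), and moved with the dose of D1. Their median was 156 CPM in mock and 148, 171, 230 and 231 CPM with D1 at 0.1, 1, 10 and 50 nM, against 172 CPM with D2, 213 with D3 and 207 with D4 at 50 nM, and their part in the results for the 5 genes was not tested. In bulk RNA, fewer cells of a type and less RNA per cell cannot be told apart.

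The first question is how the 5 genes followed the dose of D1. Rnf115 and Cog2 fell from 1 nM on, Camk2n1 and Spata6 were called lower at 50 nM, and Tfap2a at no dose that could be tested. With D1 against mock 0 of 5 genes were called lower at 0.1 nM, 2 at 1 nM and 4 at 50 nM, whereas 0.00823%, 0.272% and 13.4% of all 12153 genes tested were. At 0.1 nM edgeR's quasi-likelihood test gave 0 of 5 genes an unadjusted p under 0.05, and DESeq2 called 0. The D1 libraries at 10 nM chose the genes, so their values are a description only; there 11.0% of all genes were called lower. The other doses, and every comparison of D2 to D6 with mock, share the mock libraries with that choice. The differences between doses of D1 given below do not.

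Rnf115 was counted most often of the 5, with 392 to 660 counts a library in mock. There it lay between 101 and 128 CPM with a median of 113 CPM. With D1 the 4 libraries had 110, 97.2, 109 and 103 CPM at 0.1 nM, 74.2, 67.4, 81.2 and 83.2 CPM at 1 nM, 46.1, 38.4, 35.2 and 35.5 CPM at 10 nM, and 35.6, 34.4, 44.0 and 35.1 CPM at 50 nM. Every library at 1 nM and above was below all 8 mock libraries, and the groups at 1 nM and at 50 nM did not overlap. The level was 68.0% of mock at 1 nM (95% confidence interval 61.9 to 74.6, log2 fold-change −0.56 ± 0.0678 SE, adjusted p = 7.54e-10 from edgeR) and 32.9% at 50 nM (29.6 to 36.6, −1.60 ± 0.0767, adjusted p = 9.02e-37). It was 34.5% of mock at 10 nM. The 10 and 50 nM libraries overlapped.

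Cog2 kept a larger share of its mock level than Rnf115 at 50 nM. Mock libraries lay between 22.3 and 38.1 CPM with a median of 30.3 CPM. With D1 it had 24.6, 29.4, 32.7 and 28.0 CPM at 0.1 nM, 17.9, 20.7, 21.8 and 23.9 CPM at 1 nM, 12.4, 14.7, 16.2 and 13.1 CPM at 10 nM, and 10.4, 17.5, 15.0 and 14.8 CPM at 50 nM. At 1 nM 3 of 4 libraries were below all mock libraries, and at 10 and 50 nM all 4 were. It fell to 69.4% of mock at 1 nM (59.5 to 81.0, adjusted p = 0.00434, edgeR) and 47.7% at 50 nM (40.3 to 56.5, adjusted p = 2.96e-12), and was 46.5% at 10 nM. The call at 1 nM rested on 1 library, since without D1 1 nM replicate 1 the adjusted p was 0.112.

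Camk2n1, with 6.71 to 10.5 CPM in mock (median 7.58), was still lower at 50 nM than at 10 nM in its mean. It had 3.65, 8.55, 7.69 and 10.2 CPM with D1 at 0.1 nM, 4.58, 5.65, 5.30 and 5.28 CPM at 1 nM, 2.80, 2.55, 4.25 and 2.06 CPM at 10 nM, and 1.94, 1.85, 2.46 and 2.24 CPM at 50 nM, the last from 8 to 13 counts a library. At 1 nM all 4 libraries were below the mock range, though the test did not call it (log2 fold-change −0.65, adjusted p = 0.185, edgeR). At 50 nM the level was 26.2% of mock (18.8 to 36.5, log2 fold-change −1.93 ± 0.241 SE, adjusted p = 7.93e-11), and at 10 nM 35.9%.

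Spata6 was measured from 4 to 28 counts a library in mock and D1. It lay between 2.91 and 5.41 CPM in mock (median 4.68). With D1 it had 3.65, 1.97, 4.17 and 4.03 CPM at 0.1 nM, 3.54, 1.67, 3.06 and 3.17 CPM at 1 nM, 1.80, 1.57, 2.90 and 0.751 CPM at 10 nM, and 2.42, 2.31, 1.37 and 1.38 CPM at 50 nM. All 4 libraries at 50 nM were below the mock range. The level there was 41.1% of mock, with a wide interval of 26.6 to 63.6 (log2 fold-change −1.28 ± 0.318 SE, adjusted p = 9.64e-04, edgeR), and at 10 nM it was 38.9%.

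Tfap2a had the fewest counts, and its mean with D1 was higher at 50 nM than at 10 nM. Mock libraries had 1.48 to 2.90 CPM (median 1.96) from 5 to 15 counts. With D1 it had 1.01, 2.41, 2.24 and 2.97 CPM at 0.1 nM, 2.50, 0.837, 1.43 and 1.06 CPM at 1 nM, 0.599, 0.392, 0.193 and 0.188 CPM at 10 nM, and 2.42, 0.231, 1.37 and 0.689 CPM at 50 nM. The 10 nM libraries rest on 3, 2, 1 and 1 counts, and those at 50 nM on 10, 1, 5 and 4. Tfap2a was 17.3% of mock at 10 nM, the value that placed it first in the choice, and 54.6% at 50 nM (30.9 to 96.4, log2 fold-change −0.87, adjusted p = 0.115, edgeR). Without D1 50 nM replicate 1, the library with 10 counts, the adjusted p was 0.0205.

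**Figure D2:**
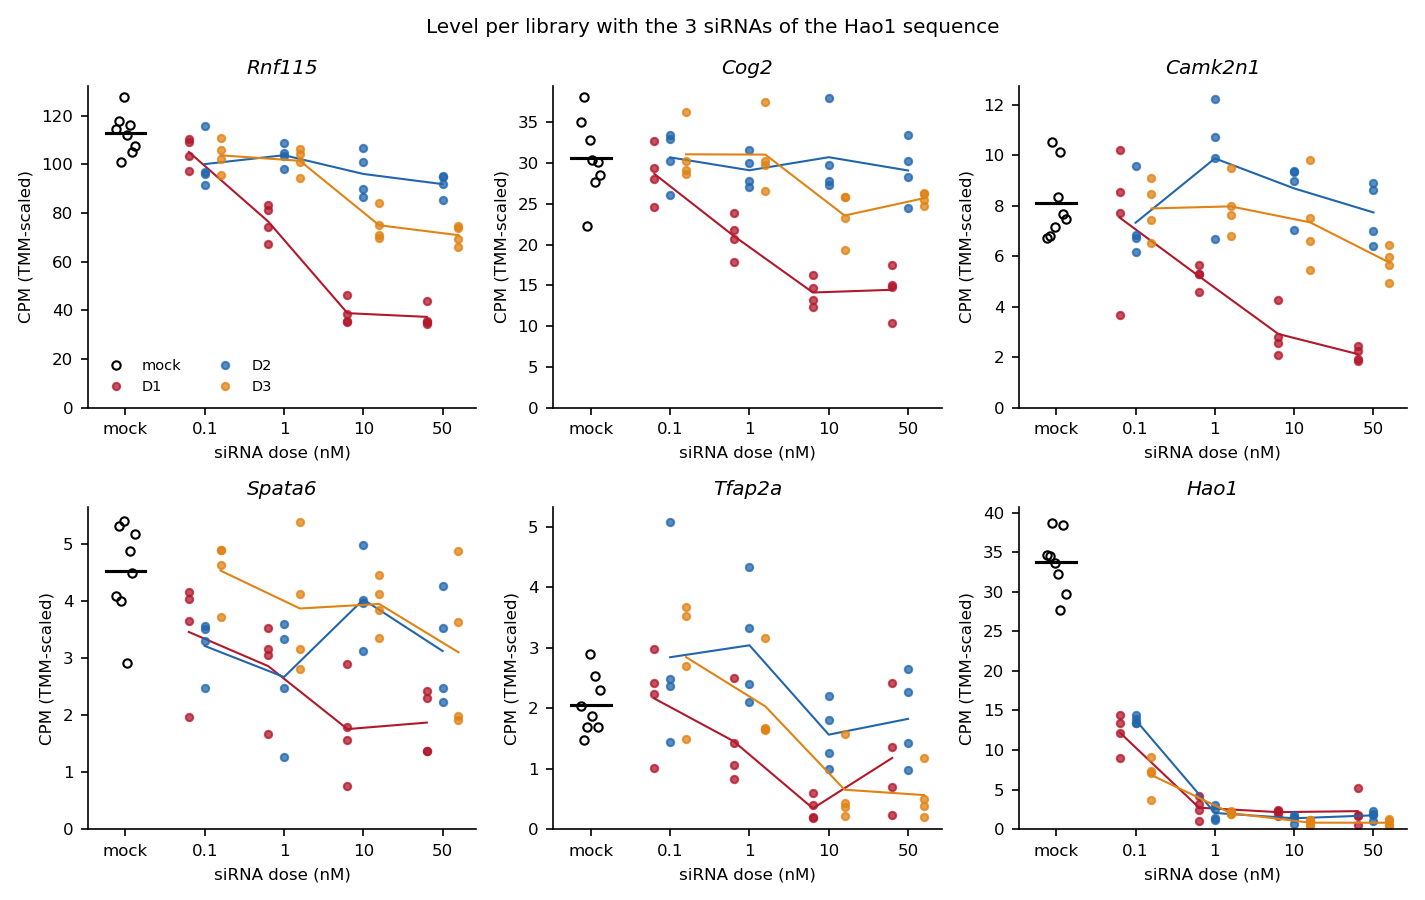
CPM of each library (points) against dose in nM for the 5 genes and Hao1, with mock as open circles and its mean as a bar, and D1, D2 and D3 in red, blue and orange, with lines through the group means; each panel has its own axis from 0. With D1 the mean of Rnf115 goes from 113 CPM in mock to 37.3 CPM at 50 nM, and Hao1 is at 6.05% to 8.11% of mock at 1 nM with the 3 siRNAs.

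The comparison of D1 at 50 nM with D1 at 0.1 nM used neither the libraries that chose the genes nor mock. Here 3 of 5 genes were called lower, against 11.3% of all genes, namely Rnf115 (log2 fold-change −1.50, 95% interval −1.67 to −1.34, adjusted p = 7.70e-31), Cog2 (−0.99, −1.26 to −0.72, 4.28e-09) and Camk2n1 (−1.81, −2.34 to −1.28, 3.17e-08), all from edgeR. Spata6 had −0.91 (−1.63 to −0.19, adjusted p = 0.0637) and Tfap2a −0.92 (−1.83 to −0.01, adjusted p = 0.154). Without D1 0.1 nM replicate 2 the adjusted p of Spata6 was 0.0276, and without D1 50 nM replicate 1 that of Tfap2a was 0.0326. From 0.1 to 1 nM only Rnf115 was called (1 of 5, against 0.173% of all genes, log2 fold-change −0.46, adjusted p = 5.80e-05, edgeR). This call was lost with sequencing run 2 alone (adjusted p = 0.0591). From 1 to 50 nM 3 of 5 were called, against 7.51%, with log2 fold-changes of −1.05 for Rnf115, −0.54 for Cog2 (adjusted p = 0.00453) and −1.28 for Camk2n1 (adjusted p = 4.72e-04). The Cog2 call was lost without D1 50 nM replicate 1 (adjusted p = 0.0542). Hao1 had a log2 difference of −0.34 between 50 and 1 nM (−1.01 to 0.33). It rested on 5 to 20 counts a library at 1 nM and 2 to 19 at 50 nM. The interval includes no difference and also the −0.54 of Cog2, so whether Hao1 followed these genes in this range cannot be told.

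The second question is how the levels depended on the chemistry at g5. In the sites printed above g5 stands opposite the G of the match. With D2, which has GNA-C there, Rnf115 was the only one of the 5 genes called lower, by much less than with D1. With D3, which has GNA-isoC, Rnf115, Cog2 and Tfap2a were called lower at 10 nM and Rnf115, Camk2n1 and Tfap2a at 50 nM. The comparisons with mock share its libraries with the choice of the genes. Against mock, D2 lowered 0, 0, 1 and 1 of 5 genes at 0.1, 1, 10 and 50 nM, where 0.00823%, 0.00823%, 0.782% and 2.61% of all genes were called lower. D3 lowered 0, 0, 3 and 3, against 0.00823%, 0.140%, 8.80% and 13.6% of all genes. At an unadjusted p under 0.05 edgeR gave 1 gene with D2 at 0.1 nM (Rnf115), 1 at 1 nM (Spata6), 0 with D3 at 0.1 nM and 1 at 1 nM (Rnf115), and DESeq2 called 0 in these 4 comparisons, with no adjusted p for 4 of the 5 genes with D3 at 1 nM.

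Rnf115 had 101, 86.7, 89.8 and 106 CPM with D2 at 10 nM and 91.8, 85.3, 95.3 and 94.8 CPM at 50 nM, and 75.0, 69.8, 84.0 and 71.0 CPM with D3 at 10 nM and 65.9, 74.6, 69.3 and 73.6 CPM at 50 nM. At 50 nM the 3 siRNAs did not overlap, and all D2 libraries were below the mock range. D2 at 50 nM left 81.6% of mock (74.5 to 89.3, adjusted p = 0.00222, edgeR) and D3 63.1% (57.4 to 69.3, adjusted p = 3.04e-14), against 32.9% with D1. The call for D2 at 10 nM (log2 fold-change −0.23, adjusted p = 0.0482) was lost without D2 10 nM replicate 1, 2 or 3 or mock replicate 1, 2, 4, 5, 6 or 8, with adjusted p of 0.0502 to 0.406.

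Cog2 with D2 stayed within or near the mock range, at 24.5, 30.2, 33.4 and 28.2 CPM at 50 nM (95.8% of mock, 82.8 to 111). D3 gave 25.8, 25.9, 19.4 and 23.2 CPM at 10 nM, 77.6% of mock (66.7 to 90.2, adjusted p = 0.0112, edgeR), and 25.4, 26.1, 24.8 and 26.4 CPM at 50 nM, 84.6% (72.9 to 98.2, adjusted p = 0.0940). The call at 10 nM was lost without D3 10 nM replicate 3 (adjusted p = 0.103), and at 50 nM a call was gained without mock replicate 3 (0.034). Camk2n1 had 8.90, 8.63, 6.99 and 6.39 CPM with D2 at 50 nM (94.9% of mock, 74.1 to 122) and 4.94, 5.96, 5.64 and 6.45 CPM with D3. All 4 D3 libraries were below the mock range (70.9%, 54.5 to 92.2, adjusted p = 0.0445, edgeR), though the call was lost without any 1 of them or without mock replicate 3, 5 or 6 (adjusted p 0.0519 to 0.125).

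Spata6 was called with neither of them, at 69.1% of mock with D2 at 50 nM (47.1 to 101, adjusted p = 0.293, edgeR) and 69.4% with D3 (47.3 to 102, adjusted p = 0.166, or 0.0486 without D3 50 nM replicate 4). The libraries had 2.23, 2.47, 4.27 and 3.53 CPM with D2 and 1.98, 1.92, 3.62 and 4.88 CPM with D3, and both groups overlapped mock and D1. Tfap2a was called lower with D3 at both higher doses. It had 0.366, 0.435, 1.58 and 0.223 CPM at 10 nM (2, 2, 8 and 1 counts) and 0.494, 0.385, 0.201 and 1.17 CPM at 50 nM (2, 2, 1 and 6 counts). This was 32.5% of mock at 10 nM (17.5 to 60.5, adjusted p = 0.00570, edgeR) and 28.1% at 50 nM (14.8 to 53.6, adjusted p = 0.00157). With D2 at 50 nM it had 1.42, 2.26, 0.971 and 2.65 CPM, or 86.6% of mock (52.5 to 143).

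The direct comparison of D1 with D2 at matched dose gave 0, 2 and 3 of 5 genes lower with D1 at 0.1, 1 and 50 nM, against 0%, 0.140% and 8.41% of all genes. At 0.1 nM edgeR gave 0 of 5 an unadjusted p under 0.05 and DESeq2 called 0. At 1 nM these were Rnf115 (log2 difference −0.44, adjusted p = 1.21e-04, edgeR) and Camk2n1 (−0.92, adjusted p = 0.0267), the second of which was lost without any 1 library other than D2 1 nM replicate 4 (adjusted p 0.0667 to 0.269). At 50 nM Rnf115 was lower with D1 by −1.31 (95% interval −1.48 to −1.14, adjusted p = 6.24e-26), Cog2 by −1.01 (−1.28 to −0.73, 5.03e-09) and Camk2n1 by −1.86 (−2.39 to −1.33, 2.59e-08), with no overlap between the libraries. Spata6 differed by −0.75 (−1.49 to −0.01, adjusted p = 0.187) and Tfap2a by −0.67 (−1.61 to 0.28, adjusted p = 0.411), neither of which passed the test. The median over the 5 genes was −1.01, against 0.00 over all genes tested.

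D1 against D3 gave the same numbers of calls, 0, 2 and 3 of 5 at 0.1, 1 and 50 nM, against 0.00823%, 0.263% and 10.6% of all genes, with 0 of 5 at an unadjusted p under 0.05 and 0 by DESeq2 at 0.1 nM. At 1 nM these were Rnf115 (log2 difference −0.41, adjusted p = 7.27e-04, edgeR) and Cog2 (−0.56, adjusted p = 0.0139), and the Cog2 call was lost without D1 1 nM replicate 1 (0.126) or D3 1 nM replicate 3 (0.162). The Rnf115 call was lost with sequencing run 2 alone (adjusted p = 0.215, edgeR). At 50 nM the differences were −0.94 for Rnf115 (−1.11 to −0.76, adjusted p = 2.61e-16), −0.83 for Cog2 (−1.10 to −0.55, 1.24e-06) and −1.44 for Camk2n1 (−1.99 to −0.88, 2.76e-05). Spata6 differed by −0.76 (−1.49 to −0.02, adjusted p = 0.146). Tfap2a had the opposite sign, 0.96 higher with D1 than with D3, with an interval of −0.22 to 2.13 that includes no difference (adjusted p = 0.270). At 10 nM, a description only, the 5 genes lay −1.12 to −2.12 on the log2 scale below D2 and −0.74 to −1.32 below D3.

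D3 and D2 differ only in the base of the GNA nucleotide, and their comparison used no library of the choice. At 0.1, 1, 10 and 50 nM 0, 0, 1 and 2 of 5 genes were lower with D3, against 0.00823%, 0%, 2.03% and 4.74% of all genes. At the 2 lower doses edgeR gave 0 of 5 an unadjusted p under 0.05 and DESeq2 called 0. Rnf115 was lower with D3 by −0.36 at 10 nM (−0.51 to −0.20, adjusted p = 0.00159, edgeR) and by −0.37 at 50 nM (−0.53 to −0.22, adjusted p = 3.69e-04), with all 4 D3 libraries below all 4 D2 libraries at both doses. Tfap2a was lower by −1.62 at 50 nM (−2.68 to −0.57, adjusted p = 0.0433), a call lost without D3 50 nM replicate 1, 2 or 3 or D2 50 nM replicate 2 or 4 (adjusted p 0.0889 to 0.175). Cog2 had −0.38 at 10 nM (−0.63 to −0.14, adjusted p = 0.0651, edgeR), with all 4 D3 libraries below all 4 D2 libraries, and DESeq2 called it lower (adjusted p = 0.0456). For the other 3 genes the intervals at 50 nM were −0.43 to 0.07 for Cog2, −0.85 to 0.01 for Camk2n1 and −0.65 to 0.66 for Spata6, so that differences of these sizes between GNA-isoC and GNA-C remain possible.

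**Figure D3:**
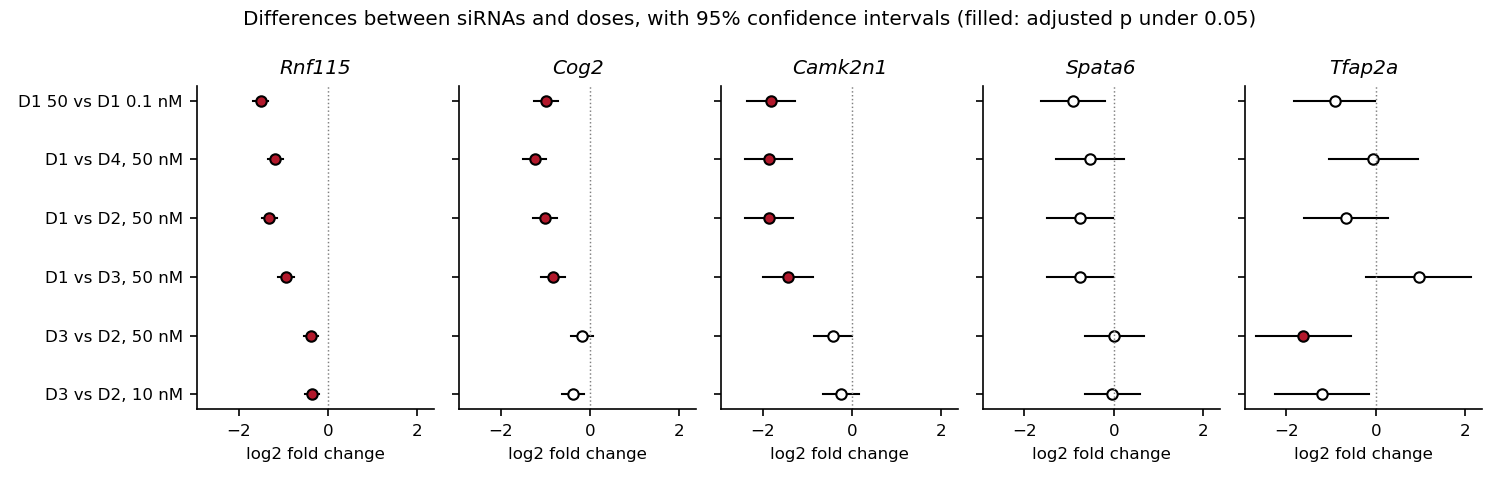
Log2 fold-change (points) with 95% confidence interval (bars) of each gene in 6 comparisons that used no library of D1 at 10 nM, the first named group over the second; filled points have an adjusted p under 0.05. Rnf115, Cog2 and Camk2n1 are lower in each of the 4 comparisons with D1 at 50 nM, while Spata6 passes in none and Tfap2a passes for D3 against D2 at 50 nM.

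D4 carries another seed, so D1 against D4 compares 2 parent siRNAs given in the same way. Matches to the D4 seed are present in Spata6, in full, and in Cog2 and Tfap2a, in the 7-base form with the A. At 0.1, 1 and 50 nM 0, 2 and 3 of 5 genes were lower with D1, against 0.00823%, 0.625% and 17.3% of all genes, with 0 of 5 at an unadjusted p under 0.05 and 0 by DESeq2 at 0.1 nM. At 1 nM these were Rnf115 (log2 difference −0.46, adjusted p = 1.44e-05, edgeR) and Cog2 (−0.56, adjusted p = 0.00435, or 0.0571 without D1 1 nM replicate 1). At 50 nM Rnf115 was lower by −1.17, Cog2 by −1.24 and Camk2n1 by −1.86 (adjusted p = 4.57e-09). Spata6 (−0.54, −1.29 to 0.22, adjusted p = 0.293) and Tfap2a (−0.06, −1.06 to 0.95, adjusted p = 0.948) were not called. Against mock, D4 left Tfap2a at 56.7% at 50 nM (33.0 to 97.5, adjusted p = 0.105), close to the 54.6% with D1, though neither passed the test.

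With the siRNAs of the Ttr sequence some of the 5 genes also differed from mock, whose libraries had a part in the choice of the genes. In mean CPM, counted from the lowest, mock ranked 25 of 25 groups for Rnf115 and 24 for Spata6. Against mock, 0, 0, 2 and 2 of 5 were called lower with D4 at 0.1, 1, 10 and 50 nM (0.00823%, 0.798%, 15.0% and 16.7% of all genes), 0, 0, 1 and 1 with D5 (0.00823%, 0.0247%, 2.72% and 1.85%) and 0, 0, 1 and 1 with D6 (0.0165%, 0.773%, 12.6% and 15.7%). At 0.1 nM an unadjusted p under 0.05 from edgeR was reached by 0, 0 and 1 gene with D4, D5 and D6 (Rnf115), and at 1 nM by 1, 0 and 1 (Spata6 in both), with 0 calls by DESeq2 in these 6 comparisons and no adjusted p from it for 3 of the 5 genes with D6 at 1 nM. Rnf115 fell with D4 to 79.0% of mock at 10 nM and 74.3% at 50 nM (67.8 to 81.4, adjusted p = 5.40e-08, edgeR), where the libraries had 85.2, 83.8, 80.4 and 85.1 CPM, all below the mock range. With D6 it fell to 85.1% and 84.6% (adjusted p = 0.00435 and 0.00203), and the call at 10 nM was lost without D6 10 nM replicate 2 (0.0749). Rnf115 has no match to the D4 seed. Camk2n1 was between 87.0% and 117% of mock in all 12 groups of D4, D5 and D6, with no call.

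Spata6 is the 1 gene of the 5 with a full match to the D4 seed. This site, at chr4:111685746-111685768 on the plus strand in the same exon, starts 66 bases before the D1 site and is shown because Spata6 was lower with both sequences. Capitals mark the 8-base match.
Spata6, D4 match: tttccaatgtcaaaaCTCTATAA
Spata6 was called lower with D4 at 10 nM (2.68, 1.99, 1.48 and 3.83 CPM, 55.2% of mock, adjusted p = 0.0155, edgeR) and 50 nM (3.02, 3.76, 1.58 and 2.40 CPM, 59.6%, adjusted p = 0.0336), and with D5 at 10 nM (2.76, 2.10, 2.68 and 1.55 CPM, 49.8%, adjusted p = 0.0208) and 50 nM (3.04, 0.872, 1.51 and 2.35 CPM, 41.8%, adjusted p = 0.00610). In 3 of these 4 groups at least 1 library was within the mock range. Each of these calls ended without 1 library, namely D4 10 nM replicate 2 or 3 (0.0635 and 0.0914), D4 50 nM replicate 3 or 4 or mock replicate 4 or 8 (0.0517 to 0.157), D5 10 nM replicate 2 or 4 (0.0675 and 0.105) and D5 50 nM replicate 2 or 3 (0.0808 and 0.0502). DESeq2 gave Spata6 no adjusted p with D5 at these doses. With D6, Spata6 was at 49.8%, 71.4% and 65.6% of mock at 1, 10 and 50 nM (adjusted p = 0.0625, 0.214 and 0.0886, edgeR), none of them called. At 1 nM it was called without D6 1 nM replicate 1 (0.0328) or mock replicate 5 (0.0369), and at 50 nM in a fit of the 2 groups alone (0.0476) and with sequencing run 1 alone (0.00835). Cog2 and Tfap2a have only the 7-base form with the A for D4. Cog2 was called higher with D4 at 10 nM (119% of mock, adjusted p = 0.0484) and D6 at 50 nM (120%, adjusted p = 0.0417), the first of which was lost without D4 10 nM replicate 1, 2 or 3 or mock replicate 3, 5, 6, 7 or 8 (0.0658 to 0.215) and the second without D6 50 nM replicate 1 or 3 or the same mock libraries (0.0546 to 0.263). Tfap2a was called with none of the 3 siRNAs in the fit of all libraries (51.1% of mock with D6 at 50 nM, adjusted p = 0.0563, edgeR). With D6 at 50 nM it was called lower in a fit of the 2 groups alone (0.0339) and with sequencing run 1 alone (0.0430). It was also called lower without D4 50 nM replicate 1 (adjusted p = 0.0186, edgeR) and, for D6 at 50 nM, without D6 50 nM replicate 1 (0.0421) or mock replicate 2 (0.0482).

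**Figure D4:**
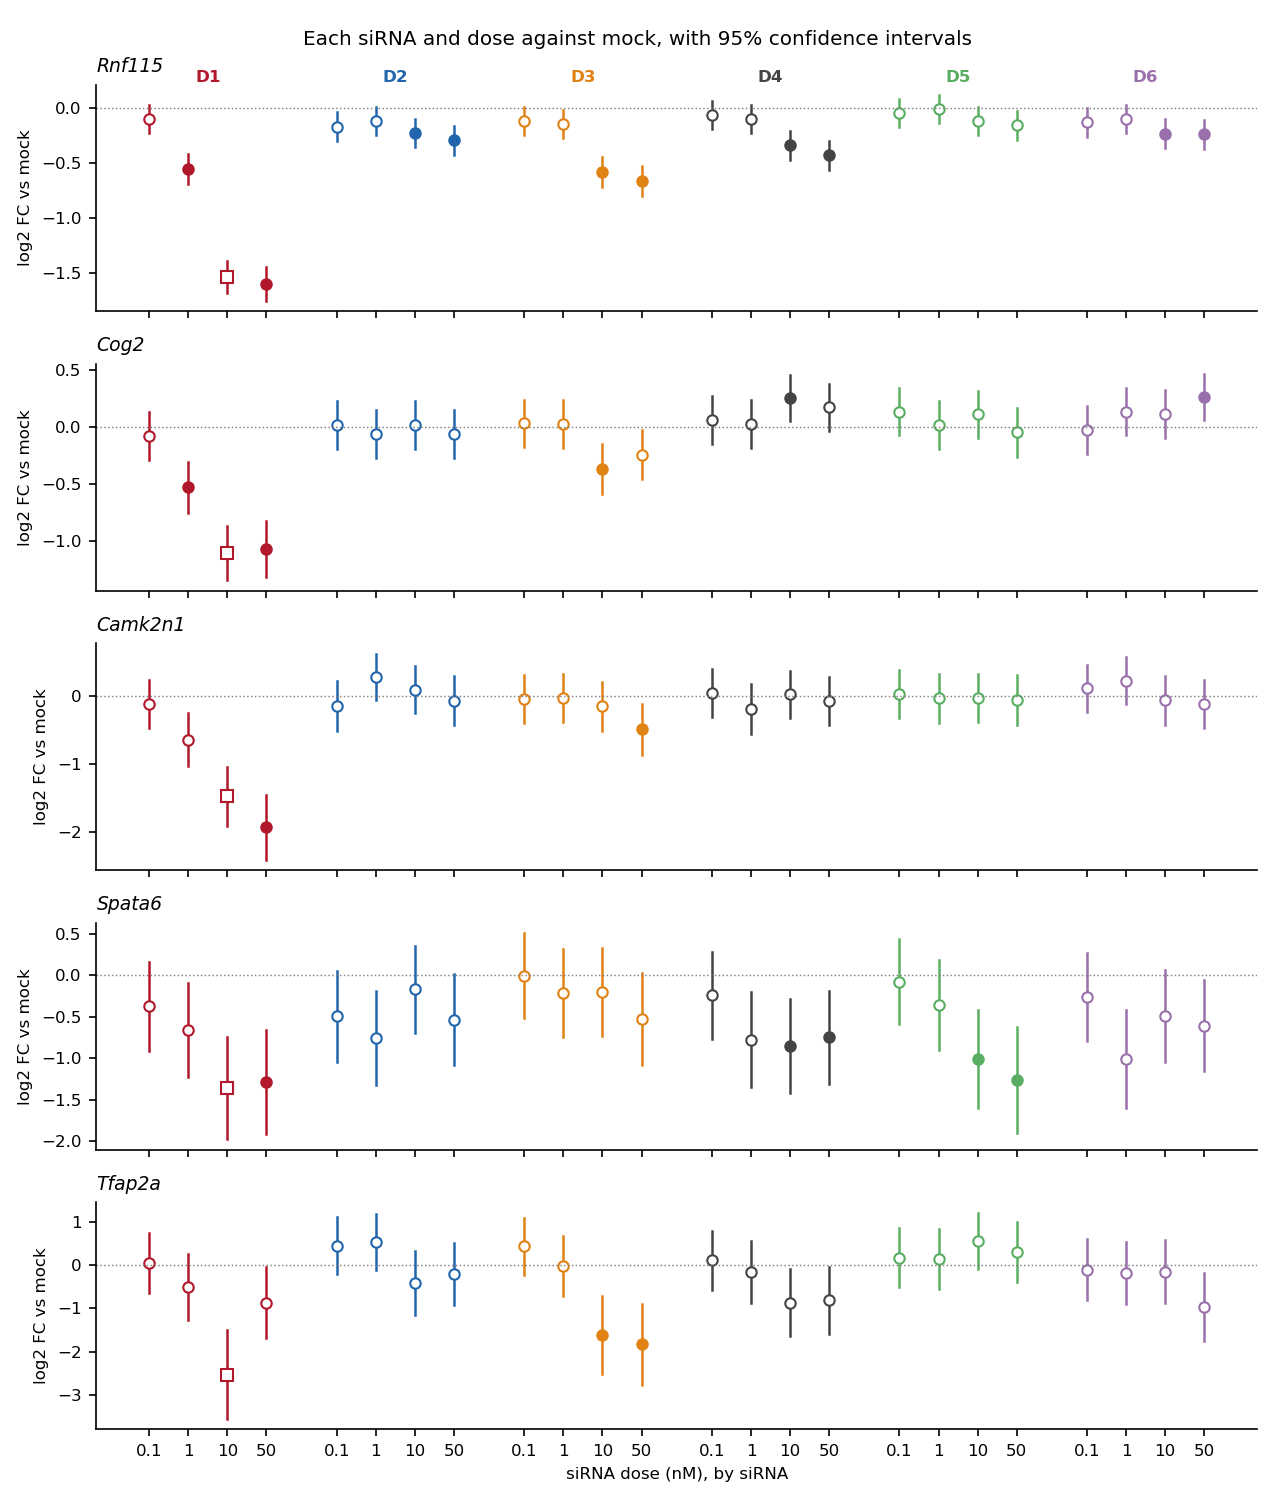
Log2 fold-change against mock with 95% confidence interval for each siRNA and dose in nM; filled circles have an adjusted p under 0.05, open circles do not, and open squares mark D1 at 10 nM, which chose the genes and was not tested. Each panel has its own axis. Rnf115 is lowest with D1 and next with D3, Cog2 and Camk2n1 are low mainly with D1, and Spata6 is also low with D4 and D5.

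Ordered by mean CPM over the 25 groups, D1 at 10 and at 50 nM were the 2 lowest groups for Rnf115, Cog2, Camk2n1 and Spata6, and D1 at 1 nM was the third for Cog2 and Camk2n1. For Tfap2a the order began with D1 at 10 nM, D3 at 50 nM and D3 at 10 nM. Of the 24 pairs of neighbours in each order, the libraries did not overlap in 1 pair for Rnf115, 1 for Cog2, 1 for Camk2n1, 0 for Spata6 and 0 for Tfap2a. For Rnf115 this was the step from 38.8 CPM (D1 at 10 nM) to 70.9 CPM (D3 at 50 nM). The low place of D1 at 10 nM in these orders was fixed by the choice of the genes. The mean log2 CPM over the 25 groups, which come in dose series and include the D1 group that all 5 genes were chosen to be low in, correlated with Pearson's r of 0.93 between Rnf115 and Camk2n1, 0.90 between Rnf115 and Cog2, and 0.91 between Cog2 and Camk2n1. For Spata6 r was 0.28 to 0.53 with the other 4, and for Tfap2a 0.75 with Rnf115.

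Among all genes tested the patterns most like that of Rnf115 were those of Lsm14a (r = 0.969 over 25 groups), Chmp1b (0.958) and Hnrnpd (0.957). For Cog2 they were Ei24 (0.972), Actg1 (0.965) and Ndufv1 (0.965), and for Camk2n1 Vps35l (0.963), Dnase1l1 (0.954) and Ndufv1 (0.950). Of these 8 genes, Chmp1b, Actg1 and Vps35l have a 7-base match to D1 guide positions 2 to 8 in the 3′-UTR and the others have none. For Spata6 the closest were Brca1 (0.780), Ddias (0.763) and Nup107 (0.757), and for Tfap2a Hkdc1 (0.863), Abcc2 (0.857) and Fabp5 (0.852), none with a D1 match.

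Just outside the choice stood Elovl6, a fatty acid elongase, and Ube4b, a ubiquitin ligase. On the scale of the choice, with D1 at 10 nM against mock in a fit of these 2 groups, the 5 genes had log2 fold-changes of −2.54 (Tfap2a), −1.54 (Rnf115), −1.48 (Camk2n1), −1.37 (Spata6) and −1.11 (Cog2, SE 0.127), and Elovl6 and Ube4b had −0.97 (SE 0.0670) and −0.94. In libraries that had no part in the choice, D1 against D2 at 50 nM, Camk2n1 and Rnf115 had the lowest fold-changes of the 43 tested genes with a full match, and Cog2 came behind Thsd4 (−1.18, adjusted p = 0.0333, edgeR) and Ube4b (−1.09, adjusted p = 1.85e-26). In this comparison 8.41% of all 12153 genes tested were called lower and 672 genes higher, which is the background for the counts below. Of the other 38 genes with a full match 11 were called lower and 0 higher with D1, with a median of −0.17. Split by position, 7 of the 16 with a match in the first 20% of the 3′-UTR were called lower (median −0.32), and 4 of the 22 with a match further on (median −0.07). The cut is the one just above the highest of the 5 genes, and the split was not tested. Genes with a 7-base match to positions 2 to 8 were lower in 52 and higher in 4 of 166 (median −0.19), and those with the 7-base form with the A in 19 and 6 of 114 (median −0.06).

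**Figure D5:**
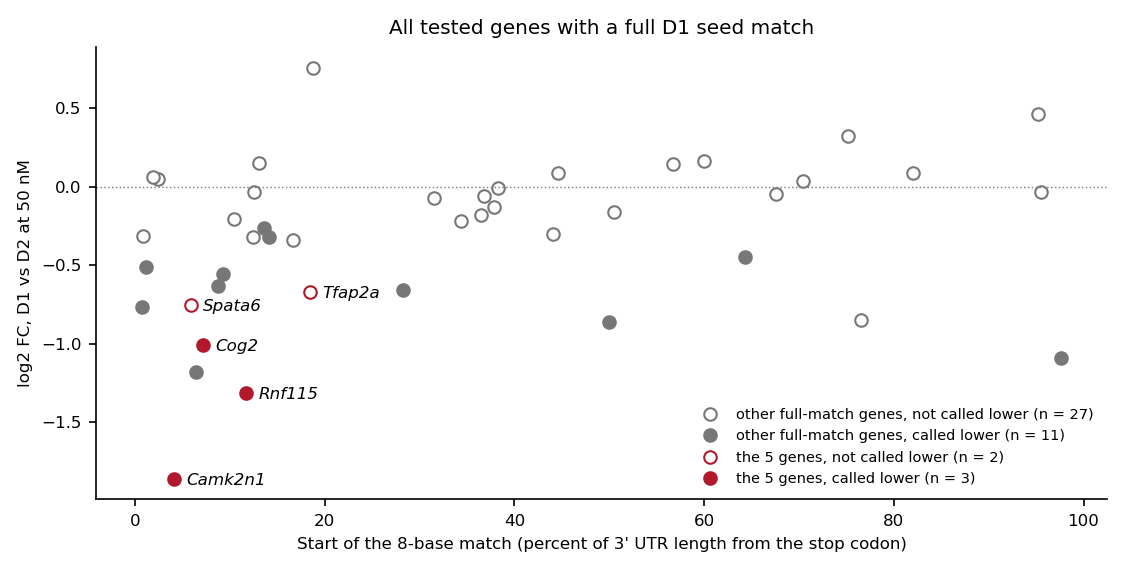
Log2 fold-change of D1 against D2 at 50 nM for the 43 tested genes with a full D1 seed match, against the start of the match in percent of the 3′-UTR length from the stop codon; red points are the 5 genes, grey the other 38, and filled points are called lower. The 5 genes lie between 4.11% and 18.4% on the x axis, and 11 of the 38 others are filled. Of all genes tested 8.41% were called lower in this comparison.

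The partner genes of the 5 were read against the 13.4% of all genes called lower with D1 at 50 nM against mock. Of the other 7 COG subunits 1 was called lower (14.3%) and 0 higher, with a median of −0.05 against 0.01 for all genes. This was Cog1 (log2 fold-change −0.44, adjusted p = 2.90e-05, edgeR), which was also lower with D1 than with D2 (−0.35, adjusted p = 0.00784), while Cog3 was higher with D1 than with D2 (0.31, adjusted p = 0.0420). Cog8 also carries a full D1 match. It was called neither against mock (−0.16, adjusted p = 0.211, edgeR) nor against D2 (−0.18, 0.286). Against D3 at 50 nM, Cog1 (−0.41) and Cog8 (−0.28, adjusted p = 0.0402) were lower with D1, 2 of 7 against 10.6% of all genes. Of 3 tested genes among 5 of the CaMKII list 1 was lower than in mock, Camk2n2, the second inhibitor (−1.23, adjusted p = 0.0150, edgeR), with −0.82 between D1 and D2 (adjusted p = 0.279). Of 3 tested genes among 8 of the AP-2 list 0 were called, and the paralog of Spata6 was not tested. The list of the Rnf115 paralog Rnf126 and the BAG6 quality control partners has 7 genes. Of these 2 were lower than in mock, Rnf126 (−0.18, adjusted p = 0.0493, edgeR) and Ubqln4 (−0.20, adjusted p = 0.00811). Between D1 and D2 at 50 nM they had 0.01 (adjusted p = 0.962, edgeR) and −0.02 (0.915), and 0 of 7 were lower, against 8.41% of all genes. With D3 at 50 nM 5 of these 7 were lower than in mock (median −0.18), where 13.6% of all genes were. Against D2 at 50 nM, D3 lowered 1 of 7, where 4.74% of all genes were lower. D2 at 50 nM against mock lowered 0 (median −0.11), where 2.61% of all genes were lower. Of 10 genes of the RNA silencing machinery, with D1 at 50 nM against mock, Ago2 was lower (−0.25, adjusted p = 8.48e-04, edgeR), and Ago1 (0.27) and Tnrc6b (0.32) were higher. Of 22 interferon response genes 0 were lower and 1 higher, Rsad2 (1.38, adjusted p = 0.0341).

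3 of the 5 genes share exon sequence with a gene on the other strand, and the strand setting of the counting is not given in the sources used here. Rnf115 shares 281 exonic bases with Polr3c, Cog2 2450 with Agt, which encodes angiotensinogen, and Tfap2a 73 to 380 with 3 non-coding genes that were at 0 CPM in mock. Polr3c was lower with D1 at 50 nM against mock (−0.18, adjusted p = 0.0250, edgeR), with −0.06 between D1 and D2 (adjusted p = 0.680). Agt was higher, by 0.42 against mock (adjusted p = 4.69e-06) and by 0.24 against D2 (adjusted p = 0.0431), the opposite direction to Cog2, and its part in the Cog2 counts was not tested.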

How the data were processed

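RNA from PMH was sequenced with the TruSeq Stranded Total RNA kit on a NextSeq500. Per the labels and the study's methods, the authors filtered reads with fastq-mcf, mapped them with STAR to GRCm39, and used featureCounts 2.0.2 to count those that aligned uniquely; the deposited values are these raw counts, given separately for 2 sequencing runs of each library. The deposited tables of fold-changes from DESeq2 1.32.0 hold the authors' own comparisons, and only gene symbols were taken from them. Whether counting used strand is not given in the sources used here.

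Counts of both runs were added up for each library. Between runs the chi-square per degree of freedom was 0.990 to 1.07, against 1.67 to 13.5 for pairs of replicates. The 92 ERCC spike-ins (0.425% to 1.43% of counts) entered neither library sizes nor tests. No library was dropped, and libraries were grouped by siRNA and dose. The test was edgeR's quasi-likelihood test (edgeR 4.0.16, R 4.3.3, TMM, filterByExpr, robust glmQLFit and glmQLFTest) with all libraries in one fit and one mean per group, which keeps the same genes and the same estimate of the spread in every comparison. P-values were adjusted by Benjamini-Hochberg over the 12153 genes tested, and a gene was called at an adjusted p under 0.05. CPM are TMM-scaled. Standard errors were derived from the log2 fold-change and the F statistic of the test. The 95% intervals come from these with a t quantile and are symmetric on the log2 scale.

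Seed matches were searched in the longest 3′-UTR and the coding sequence of GENCODE transcripts (GRCm39). The seed letters are those of the guide that the study lists for D1 and D4, and miRNA sequences are from RefSeq. The 5 genes and the gene lists were chosen with earlier results of these data known. The genes named besides the 5 are the targets, the genes just outside the choice, the 3 genes most alike each of the 5 by Pearson's r over the group means, and members of the lists that passed the test; Ube4b and the full-match genes named beside the 5 were chosen after their values were seen. Alternatives were DESeq2 1.42.0, size factors by RLE, every gene counted at least 1 time, only the 2 groups compared, and either run alone. Others were the replicate number as a block, any annotated or the canonical 3′-UTR, and each of 100 libraries left out in turn. On simulated counts for D1 against D2 at 50 nM, with 200 of 12153 genes changed, the test found 96%, 76% and 40% of the genes lowered by a log2 value of −2, −1 and −0.5 and 84% of those raised by 1, and called 5 unchanged genes. These shares are over 50 genes of each size and are not given by count level. They need not hold at the low counts of Spata6 and Tfap2a.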

Additional observations from a re-analysis of the deposited data

Results flagged for a closer look

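Of 125 pairs of a gene and a group, 6 had 1 library far from the rest by Dixon's test, where chance gives about 1 in 20. Rnf115 was 44.0 CPM in D1 50 nM replicate 3, against 34.4 to 35.6 CPM in the other 3 libraries, all far below the lowest mock library. In D6 50 nM replicate 4 it was 98.1 CPM, against 93.8 to 94.4 CPM. Cog2 was 41.6 CPM in D4 50 nM replicate 2, against 31.2 to 32.4 CPM. Camk2n1 was 6.99 CPM in D6 0.1 nM replicate 1, against 9.25 to 9.61 CPM. Tfap2a was 1.58 CPM in D3 10 nM replicate 3, where the other 3 libraries had 0.223 to 0.435 CPM from 1 or 2 counts, and 3.16 CPM in D3 1 nM replicate 4, against 1.64 to 1.67 CPM.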

How the results depend on the processing

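The number of the 5 genes called lower, summed over the doses tested, was 6 of 15 for D1 against mock and 5 to 7 without 1 library. It was 3 of 5 for D1 at 50 against 0.1 nM (3 to 4), 5 of 15 each for D1 against D2, D3 and D4 (4 to 5), 3 of 20 for D3 against D2 (2 to 3), 8 of 40 for D2 and D3 against mock (6 to 8) and 8 of 60 for D4, D5 and D6 against mock (7 to 9). The last pair of counts was 4 and 4 with sequencing run 2 alone, and the cause was not tested. Of all genes, up to 13.4% were called lower at a dose for D1 against mock, and 11.3% for D1 at 50 against 0.1 nM. The shares reached 8.41%, 10.6% and 17.3% for D1 against D2, D3 and D4, and 4.74% for D3 against D2. They reached 13.6% for D2 and D3 against mock and 16.7% for D4, D5 and D6 against mock. Replicate numbers were not taken to pair the libraries, since 95 of 1200 pairs with the same number, and not every pair, correlated above 0.1 (mean r 0.0162, −0.326 to 0.450). As a hint from the data and not the design, 52 of 100 libraries correlated best with their own number, more than an even share over 4 numbers. With the replicate block the counts were 6, 3, 5, 5, 5, 3, 7 and 7, and the calls that ended against mock were Camk2n1 with D3 at 50 nM (adjusted p = 0.161, edgeR), Cog2 with D4 at 10 nM (0.231) and D6 at 50 nM (0.223) and Spata6 with D4 at 50 nM (0.0618). Of the log2 fold-changes of single genes none reversed in a called direction under any alternative run. DESeq2 ended 1 call and added 1 of 174, RLE size factors ended 2 of 195, keeping all genes with at least 1 count ended 6, and the replicate block 4. Run 1 alone ended 10 and added 2, run 2 alone ended 15 and added 1, and the fit of 2 groups ended 2 and added 3 of 186. Of 2020 values of a gene in a comparison, from 100 fits without 1 library, 60 lost and 10 gained a call. The calls of Rnf115, Cog2 and Camk2n1 with D1 at 50 nM against mock, D2, D3 and D4 were kept in every alternative run and without each library. The calls that ended with run 1 alone include Cog2 with D1 at 1 nM against mock (adjusted p = 0.353, edgeR), and with run 2 alone Tfap2a with D3 against mock at 10 and 50 nM (0.0907 and 0.0768) and against D2 at 50 nM (0.434). The full match was present in the canonical 3′-UTR and among all annotated 3′-UTRs for 5 of 5 genes. At this depth Tfap2a and Spata6 rest on at most 28 counts a library in mock, and differences between siRNAs smaller than their intervals could not be detected.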
